A study of Mus musculus with 6 samples.

Results

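The genes described here are *Ccnd1*, *Ccnd2* and *Ccnd3* (the D cyclins), *Ccne1* and *Ccne2* (the E cyclins), *Ccna2* (cyclin A2), the cyclin-dependent kinase genes *Cdk2*, *Cdk4* and *Cdk6*, and *Cdc25a*, a phosphatase gene. The rule that picks these 10 genes out of the 53379 genes of the deposited expression table uses their names and no measured value. Each name occurred once in the table, and all 10 passed the filter on low values that was applied before testing.

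D cyclins are made when a cell receives mitogens, and they bind and activate the kinases Cdk4 and Cdk6 in G1. These complexes phosphorylate the retinoblastoma protein and its relatives, which releases E2F transcription factors; cyclin E and cyclin A then bind Cdk2 at the entry into and during S phase, and Cdc25a removes inhibitory phosphates from Cdk2. In neural progenitors the D cyclins and their kinases are known for their role in G1 length and in the choice between another division and differentiation.

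RNA-seq had been run on neural stem cells (NSCs) grown from the cortex of E14.5 mouse embryos. All cells carried floxed *Tbl1xr1* alleles (Tbl1xr1 flox/flox). Control cells received a lentivirus that expresses GFP alone, and knock-out cells a lentivirus that expresses Cre with GFP; GFP-positive cells were sorted in both cases and kept in medium with bFGF and EGF. Control had 3 libraries (replicate numbers 1, 1_1 and 2) and Cre had 3 (replicate numbers 2, 2_2 and 3), and values per library follow this order. The sources used here do not say whether the libraries came from separate cultures or embryos, so each p-value measures only the spread between these libraries, which may be technical.

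The libraries held between 7510615 and 14828100 reads on genes, with a median of 7762821 in control and 12210170 in Cre, and the 10 most abundant genes took from 15.9% to 22.9% of a library. No pair of replicates agreed within sampling noise, since chi-square per degree of freedom was at least 5.85 in every pair. The first principal component separated the groups, and Cre replicates 2 and 3 lay at opposite ends of the second, at 36.1 and -36.9. *Tbl1xr1*, the targeted gene, had 2477 ± 268 normalized counts in control and 3381 ± 440 in Cre (SD, n = 3 each). The log2 fold change was 0.45 (limma, Benjamini-Hochberg adjusted p = 0.06), so this RNA was not lower under the Cre label, and "Cre" below means the libraries labelled Cre. A count over the whole gene does not show whether the floxed part is present. Every direction given below rests on the labels, not on this gene.

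*Cdk6*, the kinase partner of the D cyclins with the lowest RNA level of the 10 genes, rose 2.66-fold in Cre. *Ccnd1*, which encodes cyclin D1, fell to 0.633 of its control level. This call was lost when any control library or Cre replicate 3 was left out, and *Ccnd1* shares exon bases with *Oraov1*. *Ccnd2* and *Cdk4*, the most abundant D cyclin and the most abundant D cyclin kinase, had overlapping groups. Both E cyclins lay lower in every Cre library than in any control library, with adjusted p just above the threshold. These are counts of RNA over all cells of a library, in which fewer cells of a type and less RNA per cell cannot be told apart.

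By limma on log2(normalized count + 1), with an adjusted p under 0.05, 2 of the 10 genes passed, 1 higher and 1 lower. Over all 14840 genes tested, 9.96% passed, 4.74% higher and 5.22% lower. An unadjusted p under 0.05 was found for 6 of the 10 genes and for 25.5% of all genes tested. The 3 Cre values lay entirely above or below the 3 control values for 5 of the 10 genes (4 lower, 1 higher), and for 30.3% of all genes tested. The median log2 fold change of the 10 was -0.23, beside -0.001 for all genes tested. A negative value was found for 8 of the 10 and for 50.1% of all genes tested. Among these 8, *Cdk2*, *Cdk4* and *Cdc25a* had small values (-0.02, -0.07 and -0.10) that changed sign in some of the other fits. On whole reads recovered from the normalized counts, edgeR's quasi-likelihood test called *Cdk6* and *Ccnd1*, 2 of the 10, where it called 9.99% of all genes. DESeq2 called 3 of the 10, *Ccne2* being added, where it called 11.8% of all genes.

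**Figure D1:**
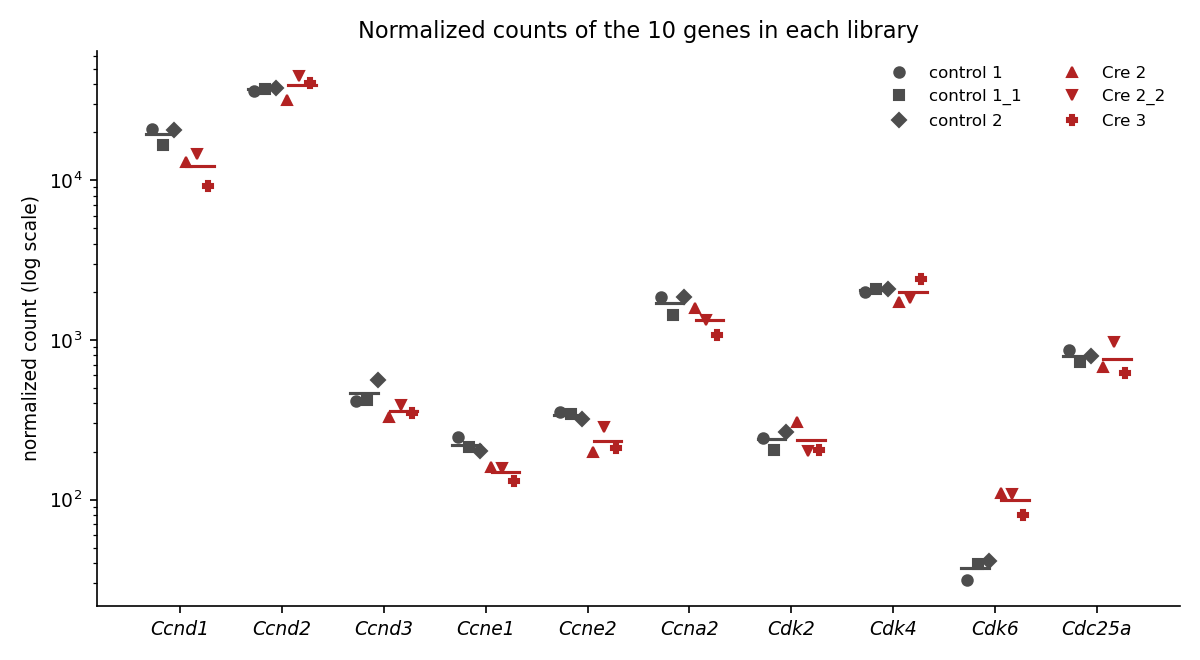
Normalized count (log scale) of each of the 10 genes in every library, with control libraries in grey, libraries labelled Cre in red and a short line at each group mean. *Cdk6* is the only one of the 10 with all Cre libraries above all control libraries; *Ccnd1*, *Ccnd3*, *Ccne1* and *Ccne2* have all Cre libraries below.

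**Figure D2:**
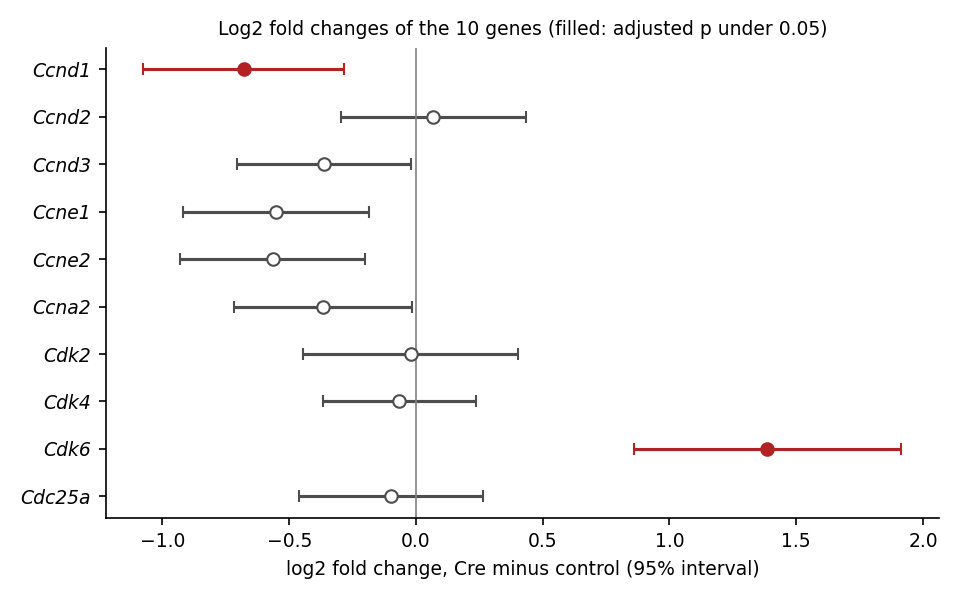
Log2 fold change, Cre minus control, of each gene on the log2(normalized count + 1) scale, with its 95% interval from the limma fit as a bar and a filled red point for an adjusted p under 0.05. *Cdk6* at 1.39 and *Ccnd1* at -0.68 are filled; the intervals of *Ccnd3*, *Ccne1*, *Ccne2* and *Ccna2* lie below 0 without passing the adjusted threshold.

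Levels of the 10 genes were compared with each other only per kilobase of exon. The sums of marker lists given further below are of normalized counts, without correction for length. *Ccnd2* had the highest level, with a mean of 6689 normalized counts per kb over the 6 libraries, and 54 of the tested genes with a known length lay above it. *Ccnd1* followed with 4120 per kb and 98 genes above it. *Cdk4* and *Ccna2* came next, at 621 and 433 per kb. The genes of lower level were *Cdc25a* at 214, *Ccnd3* at 182, *Cdk2* at 97.8, *Ccne2* at 81.7 and *Ccne1* at 69.5 per kb. *Cdk6* was last in this order, at 18.3 per kb, above 20.9% of tested genes. The values of most neighbours in this order did not overlap in either group. The exceptions were *Cdc25a* and *Ccnd3*, and *Ccne2* and *Ccne1*, which overlapped in both groups, and *Cdk2* and *Ccne2*, which overlapped in control. The abundant transcripts among the 10 were thus the D1 and D2 cyclins, with the Cdk2 partners far below them.

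Among the D cyclins, *Ccnd1* lies on chromosome 7 at 144929931-144939831 (GRCm38.p6 gene model, as for all positions here). It had 20874, 16691 and 20484 normalized counts in control and 13070, 14528 and 9165 in Cre. Every Cre library lay below every control library, and Cre replicate 3 was the lowest. The means were 19349 ± 2311 and 12254 ± 2773 (SD, n = 3 each), a log2 fold change of -0.68 ± 0.18 (SE), with a 95% interval from -1.08 to -0.28 and a limma adjusted p of 0.0376. This call was lost without control replicate 1 (limma adjusted p = 0.16), control replicate 1_1 (0.0628), control replicate 2 (0.142) or Cre replicate 3 (0.0656), and it held without Cre replicate 2 (0.0152) or Cre replicate 2_2 (0.0484). The log2 fold change ranged from -0.81 to -0.48 over these fits.

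*Ccnd1* shares 818 exon bases, 21.3% of its own, with *Oraov1*, a gene on the opposite strand. The library kit does not mark strand, so reads in the shared bases cannot be told apart. *Oraov1* reads were 0.698 to 0.768 of *Ccnd1* reads in each library, and its log2 fold change was -0.68 with a limma adjusted p of 0.038, a call also lost without control replicate 1 (0.169), control replicate 2 (0.149) or Cre replicate 3 (0.0768). The values of *Ccnd1* and *Oraov1* may therefore be in part the same reads, and the part of shared reads in the result was not tested.

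*Ccnd2* encodes cyclin D2, the D cyclin known to be retained by dividing cortical progenitors, and lies on chromosome 6 at 127125162-127152188. It had 36191, 37350 and 37558 normalized counts in control and 31961, 44908 and 40822 in Cre. The control libraries were close together, and the Cre libraries fell on both sides of them. The log2 fold change was 0.07 ± 0.17, with a 95% interval from -0.30 to 0.43 (limma adjusted p = 0.837), which spans changes in both directions.

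*Ccnd3*, the cyclin D3 gene on chromosome 17 at 47505051-47599689, was the least abundant of the D cyclins. It had 412, 418 and 561 normalized counts in control and 330.3, 392 and 351 in Cre. The groups did not overlap, and control replicate 2 stood above the other libraries. The log2 fold change was -0.36 ± 0.16 (95% interval -0.71 to -0.02, limma adjusted p = 0.171), which missed the threshold. *Ccnd3* shares 353 exon bases with *Bysl* on the opposite strand, whose log2 fold change was -0.49 (limma adjusted p = 0.0567) and whose reads were 1.59 to 1.85 times those of *Ccnd3*.

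The make-up of the D cyclin RNA was described per kb, without a test of its own. Per kb, *Ccnd1* gave 45.5%, 39.2% and 43.9% of the summed D cyclin level in control and 37.2%, 32.0% and 24.6% in Cre, with no overlap. Non-overlap was found for 30.3% of all tested genes, and the *Ccnd1* share rests on the same values as its call, with the shared *Oraov1* bases and the lost calls given above. *Ccnd2* gave 53.0%, 59.1% and 54.1% in control and 61.2%, 66.5% and 73.8% in Cre, also with no overlap. *Ccnd3* stayed between 1.47% and 2.04% in every library. The ratio of *Ccnd2* to *Ccnd1* per kb, which restates these values, was 1.17 to 1.51 in control and 1.65 to 3.00 in Cre. The summed level of the D cyclins was 11747 ± 579 per kb in control and 10235 ± 1415 in Cre, and these groups overlapped.

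**Figure D3:**
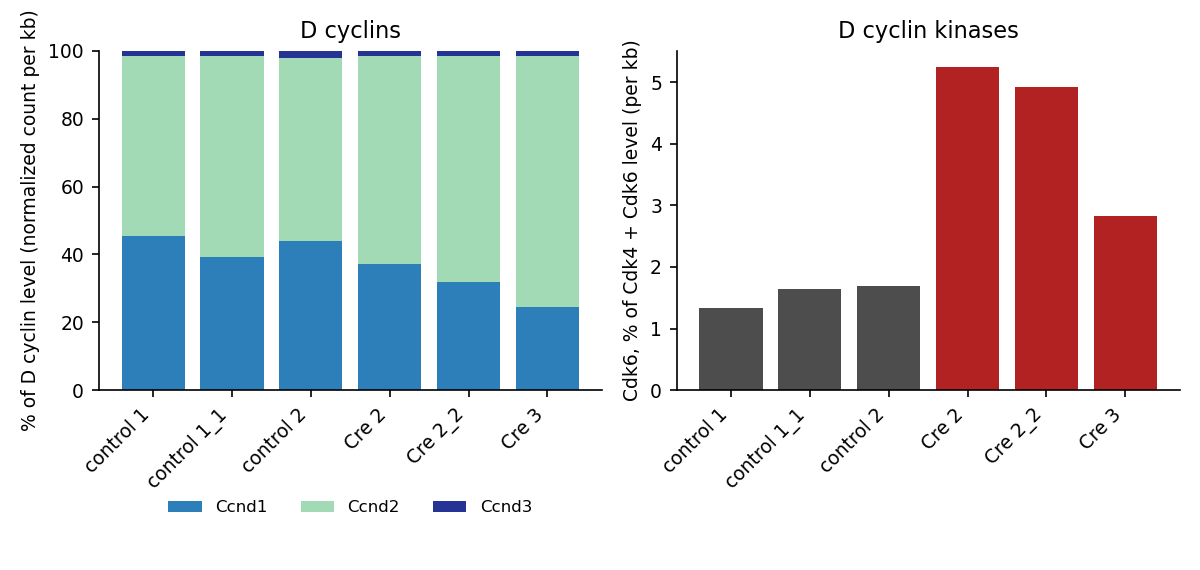
Left, share of the summed D cyclin level (normalized counts per kb) held by *Ccnd1*, *Ccnd2* and *Ccnd3* in each library, as stacked bars that add to 100%; right, *Cdk6* as a percent of the summed *Cdk4* and *Cdk6* level per kb. The *Ccnd1* share is 24.6% to 37.2% in Cre against 39.2% to 45.5% in control, and the *Cdk6* share is 2.83% or more in Cre against at most 1.69% in control.

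The E cyclins bind Cdk2 at the G1 to S transition, and their genes are textbook E2F targets. *Ccne1*, on chromosome 7 at 38097984-38107490, had 246.9, 212 and 201 normalized counts in control and 159, 158 and 132 in Cre. All Cre libraries lay below all control libraries. Cre differed from control by -0.55 ± 0.17 on the log2 scale (95% interval -0.92 to -0.19), and the limma adjusted p of 0.0589 missed the threshold. It passed without Cre replicate 2 (limma adjusted p = 0.0406). That fit called 2396 of all tested genes, beside 1478 with all 6 libraries, which also applies wherever it is named below.

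*Ccne2*, the second E cyclin gene, lies on chromosome 4 at 11190433-11204779. It had 352, 345 and 320.1 normalized counts in control and 198, 286 and 211 in Cre. Again the groups did not overlap, with Cre replicate 2_2 nearest to control. On the log2 scale the difference, Cre minus control, was -0.57 ± 0.17 (95% interval -0.93 to -0.20, limma adjusted p = 0.0542). It passed without Cre replicate 2_2 (limma adjusted p = 0.034) and in DESeq2 (adjusted p = 0.0473). *Ccne2* shares 609 exon bases, 17.4% of its own, with *Ints8* on the opposite strand, whose log2 fold change was -0.02 (limma adjusted p = 0.972), so that *Ints8* reads went from 0.538 to 0.669 of *Ccne2* reads in control to 0.831 to 0.969 in Cre.

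Between the 2 E cyclins, *Ccne1* gave 45.9% ± 1.74 of their summed level per kb in control and 46.2% ± 4.73 in Cre (SD, n = 3 each), with overlapping groups and a wider spread in Cre. Their sum was 194, 178 and 167 per kb in control and 117, 141 and 109.9 in Cre, with no overlap. That sum restates the values of the 2 genes, and single genes did not overlap in 30.3% of those tested.

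*Ccna2* encodes cyclin A2, which acts in S phase and G2, and lies on chromosome 3 at 36564865-36573038. It had 1858, 1422 and 1843 normalized counts in control and 1581, 1330.1 and 1079 in Cre. Cre replicate 2 lay above control replicate 1_1, so the groups overlapped. Its log2 fold change was -0.37 ± 0.16 (95% interval -0.72 to -0.01, limma adjusted p = 0.178), and it passed without Cre replicate 2 (limma adjusted p = 0.0341). *Exosc9* shares 512 exon bases with *Ccna2* on the opposite strand and had a log2 fold change of -0.35 (limma adjusted p = 0.157).

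*Cdk2*, the kinase of the E and A cyclins, lies on chromosome 10 at 128697938-128705051. It had 244, 205 and 265 normalized counts in control and 306, 201 and 206 in Cre. Cre replicate 2 was the highest library and Cre replicate 2_2 the lowest. The means were 238 ± 30.8 and 238 ± 59.2, with a log2 fold change of -0.02 ± 0.19 (95% interval -0.44 to 0.40, limma adjusted p = 0.963). The ratio of *Ccna2* to *Cdk2* per kb was 5.28, 4.81 and 4.81 in control and 3.58, 4.58 and 3.63 in Cre, with no overlap. Each gene alone had overlapping groups and was not called. How often ratios of other gene pairs do not overlap was not computed, and single genes did not overlap in 30.3% of those tested.

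*Cdk4* was the main D cyclin kinase gene of these cells by level, and lies on chromosome 10 at 127063535-127067288. It had 1999, 2068 and 2089.8 normalized counts in control and 1719.6, 1822 and 2408 in Cre. The control libraries fell inside the range of the Cre libraries. Cre minus control was -0.07 ± 0.14 on the log2 scale (95% interval -0.37 to 0.24, limma adjusted p = 0.812). *Tspan31* shares 604 exon bases with *Cdk4* on the opposite strand and had a log2 fold change of -0.02 (limma adjusted p = 0.96).

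*Cdk6* lies on chromosome 5 at 3341004-3531008. It had 31.2, 39.5 and 41.3 normalized counts in control, from 34, 27 and 31 reads, and 109.4, 108.5 and 80.6 in Cre, from 158, 126 and 90 reads. Every Cre library lay above every control library. The means were 37.3 ± 5.40 and 99.5 ± 16.4 (SD, n = 3 each), a log2 fold change of 1.39 ± 0.24 with a 95% interval from 0.86 to 1.91 (limma adjusted p = 0.00503). Counting error alone at 27 reads is 19.2%, and the pseudocount makes a fold change at this level slightly too small. The call held with each library left out, with a limma adjusted p of 0.00474 to 0.0333 and a log2 fold change of 1.27 to 1.53. *Gm17590*, which shares 60 exon bases with *Cdk6*, had at most 8 reads in a library.

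*Cdk6* was a minor part of the D cyclin kinase RNA in both groups. Per kb it gave 1.34%, 1.63% and 1.69% of the *Cdk4* and *Cdk6* sum in control and 5.25%, 4.92% and 2.83% in Cre. *Cdk4* exceeded *Cdk6* 73.6-fold, 60.2-fold and 58.1-fold in control and 18.1-fold, 19.3-fold and 34.4-fold in Cre. The sum of both kinases was 642 ± 16.1 per kb in control and 637 ± 110 in Cre, and these groups overlapped.

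*Cdc25a*, on chromosome 9 at 109875518-109893895, had 864, 731 and 791 normalized counts in control and 681, 963 and 620 in Cre. Cre replicate 2_2 was the highest of the 6 libraries and Cre replicate 3 the lowest. Its log2 fold change was -0.10 ± 0.17 (95% interval -0.46 to 0.26, limma adjusted p = 0.762).

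For a single gene, 3 libraries against 3 cannot give an exact two-sided permutation p below 0.1. That smallest value was reached by *Ccnd1*, *Ccnd3*, *Ccne1*, *Ccne2* and *Cdk6*, while the exact permutation p was 0.2 for *Ccna2*, 0.7 for *Ccnd2* and *Cdc25a*, 0.8 for *Cdk4* and 0.9 for *Cdk2*.

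**Figure D4:**
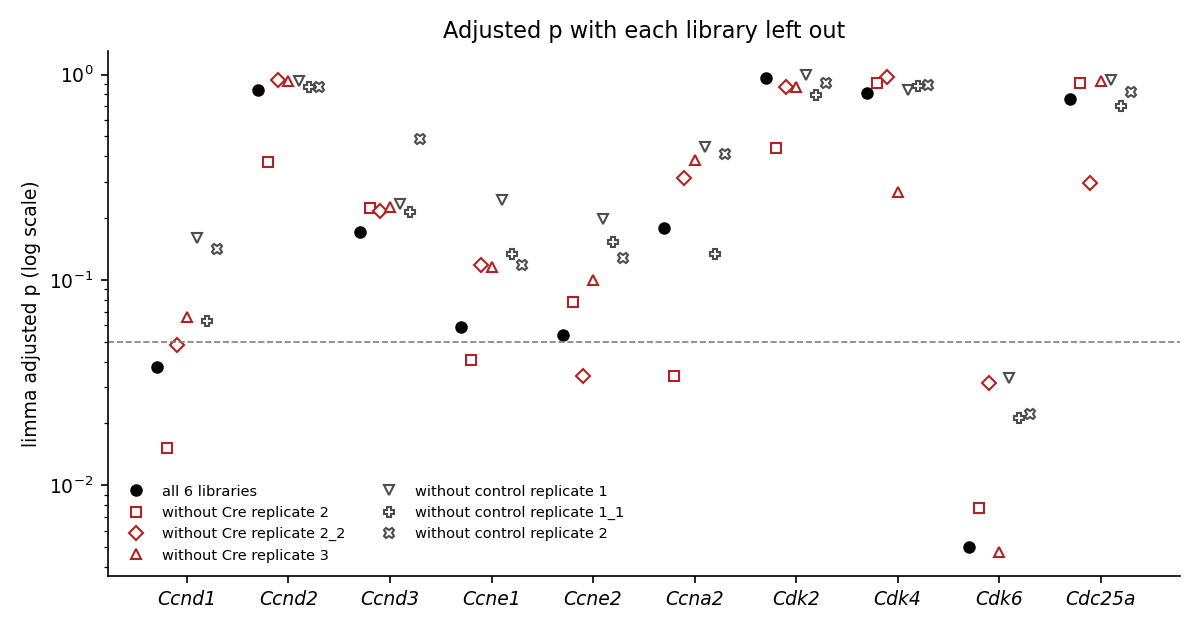
Limma adjusted p (log scale) of each gene with all 6 libraries (black) and with each library left out in turn, red symbols for a Cre library left out and grey for a control library; the dashed line is 0.05. *Cdk6* stays under the line in all 6 fits with a library left out, *Ccnd1* in 2 of 6, and *Ccne1*, *Ccne2* and *Ccna2* each pass in 1.

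The Cre libraries were more variable than control for most of the 10 genes. The coefficient of variation was larger in Cre for 8 of them, and for 65.5% of all tested genes. It ranged from 1.99% to 18.2% in control and from 8.73% to 24.9% in Cre. Cre replicate 3 was the lowest Cre library for 5 of the 10 genes, Cre replicate 2 for 4 and Cre replicate 2_2 for 1. Over all tested genes these shares were 35.6%, 37.3% and 27.1%.

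Sequence upstream of the listed start (RefSeq, GRCm38.p6, 250 bases before and 50 after) was held for 6 of the 10 genes in 7 windows, since *Ccnd3* had 2, the second far inside its gene model. *Ccnd1*, *Ccnd2*, *Ccne2* and *Ccna2* had no entry. E2F words (TTTCCCGC, TTTGGCGC, TTTGCCGC or TTTCGCGC, both strands) occurred in *Cdk2* and *Cdc25a*, 2 of 6 genes, and in 2.26% of 32851 promoters of that length. Both are shown with 30 bases around the word, since E2F release is what the D cyclin kinases control; capitals mark the word. The *Cdk2* site, chr10:128705173-128705202 on the minus strand, has its word first base at -140 from the start, and the *Cdc25a* site, chr9:109875501-109875530 on the plus strand, at -67. The listed start of *Cdc25a* is 61 bases inside its gene model, so its site spans the first base of that model.
Cdk2: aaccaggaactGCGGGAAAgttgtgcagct
Cdc25a: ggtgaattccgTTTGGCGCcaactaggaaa

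Neither of these genes passed the test between groups. *Ccne1* held no E2F word in its window, which says only that these letters are not there. The GC box GGGCGG was found in *Ccnd3*, *Ccne1*, *Cdk2*, *Cdk4* and *Cdc25a*, 5 of 6 genes, and in 35.7% of all promoters, and no GC box overlapped an E2F word. CTTTGAT, the TCF/LEF word, was found in *Cdk4* at -52, and in 3.73% of all promoters. The CHR words TTTGAA and TTCGAA (19.2% of all promoters), the CRE word TGACGTCA (1.79%) and the AP-1 word TGANTCA (7.81%) were in none of the 6, on either strand. *Cdk6* held none of the 6 motifs, in a window that lies before the listed start but 2889 bases inside the *Cdk6* gene model given above, so it says nothing of the bases before that model.

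The inhibitors of these kinases were measured beside them. Counts in this and the following lists stand beside 9.96% of all tested genes called and 50.1% with a negative log2 fold change. Of 7 CDK inhibitor genes, 1 passed the test: *Cdkn1a*, which encodes p21, fell from 3708 ± 402 to 2706 ± 108 normalized counts (SD, n = 3 each), a log2 fold change of -0.45 (limma adjusted p = 0.037). That call was lost without control replicate 1 (limma adjusted p = 0.143), control replicate 1_1 (0.056), control replicate 2 (0.153), Cre replicate 2_2 (0.0958) or Cre replicate 3 (0.0537). The other 6, among them the p27 gene *Cdkn1b* at -0.04 and the p16 and p19Arf locus *Cdkn2a* at 0.20, did not pass. The median log2 fold change of the 7 was -0.14.

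Downstream of the D cyclin kinases, none of the 3 pocket protein genes passed by limma, edgeR or DESeq2, and 2 had an unadjusted p under 0.05. *Rbl1* (p107) had a log2 fold change of -0.48 and *Rbl2* (p130) of 0.50 (limma adjusted p = 0.077 and 0.16), and *Rbl2* passed without Cre replicate 3 (limma adjusted p = 0.0274). Of 10 E2F and DP genes, 1 passed: *E2f1*, an activator of S phase genes, fell from 471 ± 72.0 to 203 ± 28.0 normalized counts, a log2 fold change of -1.21 ± 0.17 (limma adjusted p = 0.00143), and it was called in all 6 fits with a library left out. The median of the 10 was -0.28, with 7 negative.

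Of 20 genes for regulators of cyclin-CDK activity and stability, 1 passed, a share below that of all tested genes, and 16 of 20 had a negative log2 fold change. *Skp2*, a ubiquitin ligase subunit that targets p27, fell from 589.9 ± 23.2 to 415 ± 63.1 normalized counts, a log2 fold change of -0.52 (limma adjusted p = 0.043). The *Skp2* call was lost without control replicate 1 (limma adjusted p = 0.17), control replicate 1_1 (0.0981), control replicate 2 (0.135) or Cre replicate 3 (0.0863). Of the mitotic cyclins and *Cdk1*, 4 of 6 could be tested and none passed by limma, edgeR or DESeq2, with 1 at an unadjusted p under 0.05. *Cdk1*, the mitotic kinase, had a log2 fold change of -0.68 with overlapping groups (limma adjusted p = 0.122). It passed without Cre replicate 2 (limma adjusted p = 0.000917), and the other fits with a library left out gave 0.127 to 0.347. *Ccnf* had a log2 fold change of -0.16, also with overlapping groups (limma adjusted p = 0.563).

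**Figure D5:**
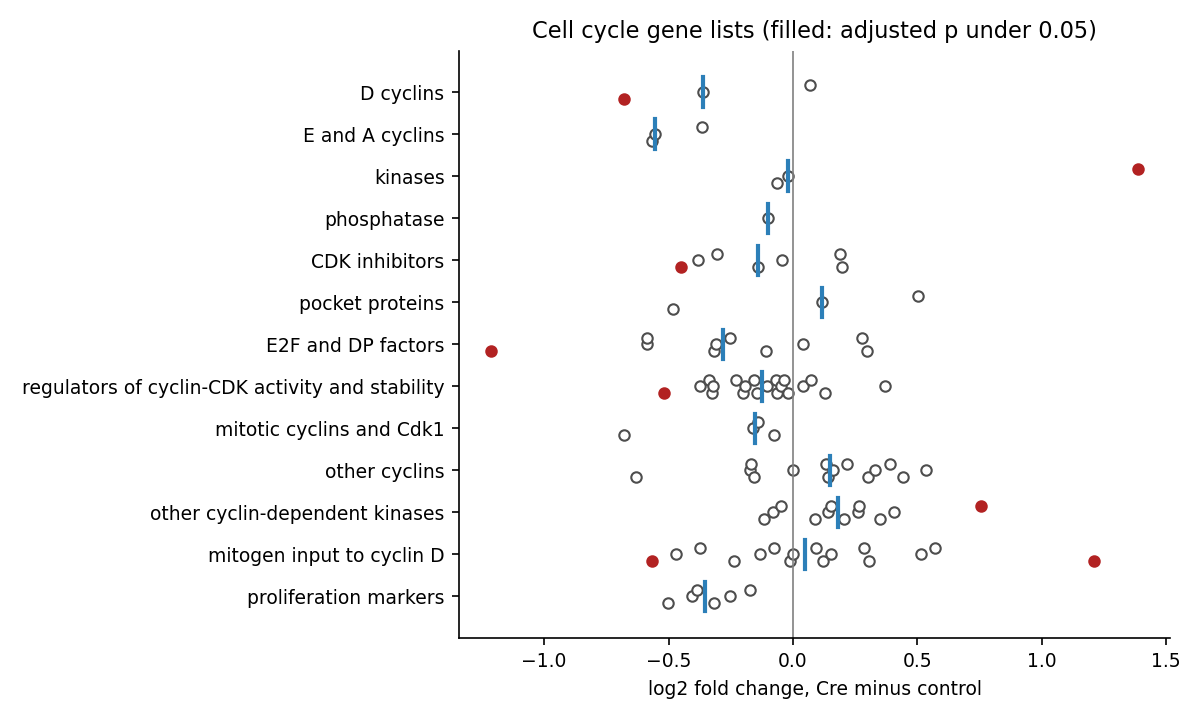
Log2 fold change, Cre minus control, of every tested gene in the 4 groups of the 10 genes and in 9 other cell cycle lists, with a blue bar at each median and filled red points for a limma adjusted p under 0.05. Each list holds at most 2 filled points, and *E2f1* at -1.21 and *Ets1* at 1.21 are the outermost of them beside *Cdk6*.

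Markers of dividing cells and of cell types were read in the same libraries. None of 6 proliferation markers passed by limma, edgeR or DESeq2, with 3 at an unadjusted p under 0.05. All 6 had a negative log2 fold change, with a median of -0.35, and their summed level, which *Top2a* and *Plk1* dominated, was 30283 to 33067 normalized counts in control and 24238 to 27522 in Cre. *Pcna* had a log2 fold change of -0.50 and passed without Cre replicate 3 (limma adjusted p = 0.0752, then 0.0485), and *Plk1* had -0.41 and passed without Cre replicate 2 (limma adjusted p = 0.0849, then 0.0186). All 10 neural stem cell markers passed the filter on low values. Their summed level was 33831 to 37734 normalized counts in control and 33561 to 35321 in Cre. Of these 10, 6 had a positive and 4 a negative log2 fold change, with a median of 0.13. Only 1 passed the test: *Nes* fell by 0.85 on the log2 scale (limma adjusted p = 0.00384).

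Some of the glial markers were called and others were not. Of 9 astrocyte markers tested out of 10, 4 rose and none fell by limma, and 7 had a positive log2 fold change. The summed level of the list was 16626 to 18231 in control and 21566 to 22138 in Cre. *Slc1a3* and *Sparcl1* dominated this sum, with means of 6060.4 and 6480.5 in control and 7408.1 and 5773.5 in Cre. *S100b* rose by 3.10 and *Slc1a2* by 1.16 on the log2 scale (limma adjusted p = 7.39e-07 and 0.000382), while *Gfap* was too low to be tested. *Glul* rose by 0.52 (limma adjusted p = 0.016), a call lost without control replicate 1, 1_1 or 2 or Cre replicate 2_2. *Aldh1l1* went the other way, with 17.3 normalized counts in control and 5.35 in Cre and no overlap, a log2 fold change of -1.65 (limma adjusted p = 0.065), and *Sparcl1* had -0.17 (limma adjusted p = 0.432). Of 7 oligodendrocyte lineage markers tested out of 10, 3 rose and none fell, with a sum of 12899 to 14824 in control and 17819 to 20124 in Cre. *Olig1*, which was not called, and *Olig2* dominated that sum. *Olig2* rose by 0.71 on the log2 scale (limma adjusted p = 0.00747), and *Sox10*, *Mog* and *Mag* were too low to be tested. *Pdgfra* rose by 0.86 and *Cspg4* by 0.64 (limma adjusted p = 0.0136 and 0.0285). The *Pdgfra* call was lost without control replicate 2 or Cre replicate 2_2. That of *Cspg4* was lost without control replicate 1, 1_1 or 2 or Cre replicate 3. These calls numbered 2 to 6 for the astrocyte and 1 to 3 for the oligodendrocyte lineage markers over 17 alternatives. The part of these cell types in the results for *Ccnd1* and *Cdk6* was not tested.

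Of 8 neuron markers tested out of 12, *Elavl4* rose by 2.32 and *Gap43* fell by 0.76 on the log2 scale (limma adjusted p = 3.7e-05 and 0.00975; *Gap43* gave 0.0572 without control replicate 2). The neuron sum, which *Map2* and *Gap43* dominated, was 17704 to 18795 in control and 15275 to 17250 in Cre. The mean of *Map2* was 9210 in control and 10541 in Cre, and that of *Gap43* 8711 and 5196. Of the 8 tested, 4 had a positive and 4 a negative log2 fold change. *Stmn2* and *Neurod6* were at 0 in all libraries. Of the markers of microglia, vessels, fibroblasts and meninges, *Csf1r* and *Kdr* alone passed the filter. Of 6 microglia markers 1 could be tested, *Csf1r*, with a mean of 183 normalized counts in control and 222 in Cre, which passed in none of the 3 tools (limma adjusted p = 0.483), with *Tyrobp* at 0 and a sum of 162 to 205 in control and 166 to 273 in Cre. Of 6 endothelial and mural markers, 3 were at 0, the sum was 22.7 to 40.4 in control and 12.1 to 14.5 in Cre, and *Kdr*, the only one tested, passed in none of the 3 tools (limma adjusted p = 0.0677, unadjusted p under 0.05). No fibroblast and meningeal marker reached the filter, with a sum of at most 5.85 in control and 21.5 in Cre.

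Profiles over the 6 libraries were compared by the root mean square distance between log2 values centred on their mean, over 11111 genes with a mean of at least 50. The profiles nearest to *Cdk6* were those of *Setbp1* (distance 0.0827), *Grid1* (0.0968) and *Fgfr3* (0.138), beside a root mean square of 0.718 for *Cdk6* itself. The profiles nearest to *Ccnd1* were those of *Oraov1* (0.0563), the neighbour that shares its exon bases, *Wrnip1* (0.0573) and *Arrb1* (0.0613), beside 0.408 for *Ccnd1*. With 6 libraries in 2 groups, most of such a distance is set by the difference between groups.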

How the data were processed

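RNA-seq libraries had been made with a kit that does not mark strand. The submitters' processing notes name STAR 2.7, DESeq2 and mm10, whereas the study's methods name TopHat with mm9 and mm10; the counting tool, strand setting and annotation version are not given in the sources used here. The authors deposited 1 table for the series with normalized counts per gene and library, which are reads divided by a size factor, so the unit is a signal and not a raw count. The same table deposited by the authors holds their own comparison, with log2 fold changes, standard errors and test statistics as scores, and p-values, none of which was used.

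All normalized counts were whole multiples of 1 read in each library (100% within 0.001 of a whole number), so reads were recovered. Samples were grouped by their titles. The main test was limma 3.58.1 (R 4.3.3; empirical Bayes with a mean trend) on log2(normalized count + 1), for genes with a mean of at least 10, with Benjamini-Hochberg adjustment over all tested genes and a threshold of 0.05. Fold changes on this scale are too small for low genes. edgeR 4.0.16 and DESeq2 1.42.0 were run on the recovered reads as alternatives, and single genes were also tested by exact permutation (scipy 1.17.1). Other pseudocounts, filters, scalings, a threshold of 0.1, averaged libraries and leaving out each library were tried. Scripts were tested on simulated data. Levels per kb used union exon lengths of GENCODE M1 (mm9); positions and promoters are RefSeq on GRCm38.p6. One gene of the table (1 of 53379) has a missing value and was left out, and protein sequences were not analysed here.

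The 10 genes and all lists were chosen with earlier results of these data known. Named genes are the 10, *Tbl1xr1*, up to 3 genes per direction with the lowest p among those past the threshold in each other list (up to 2 with the lowest p where none passed), and 3 nearest profiles for the largest rise and the largest fall. Other genes named for context were chosen after their values were seen. They are neighbours that share exon bases, *Cdkn1b*, *Cdkn2a*, *Aldh1l1*, *Sparcl1*, *Slc1a3*, *Olig1*, *Top2a*, *Map2* and markers at or near 0. Counting error for the 10 genes follows from 27 to 52164 reads per gene and library, and other sources of error come on top.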

Additional observations from a re-analysis of the deposited data

How the results depend on the processing

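Over 17 alternatives, 1 of the 10 genes was called higher each time, and this was *Cdk6* (adjusted p 0.000111 to 0.0333). *Ccnd1* was called in 11 of 17. The count of genes called lower was 2 with DESeq2 and with Cre replicates 2 and 2_2 averaged. With no filter on low values it was 0, for 1 gene called in all. With control replicates 1 and 1_1 averaged it was also 0, for 1 called, and 660 of all tested genes passed. At an adjusted p under 0.1 it was 3, for 4 called, and 2380 of all tested genes passed. Leaving out each library in turn gave 558 to 2396 of all genes, 1 to 4 of the 10 called, and 0 to 3 called lower; the lowest count of all genes came without control replicate 1 and the highest without Cre replicate 2. For genes with a log2 fold change near 0 the sign turned: *Cdk2* gave 0.0025 in edgeR and 0.0036 in DESeq2 and -0.216 to 0.0846 with a library left out, and *Cdk4* gave 0.00895 with Cre replicates 2 and 2_2 averaged and -0.213 to 0.0294 with a library left out. Leaving out a library gave -0.0358 to 0.21 for *Ccnd2* and -0.287 to 0.0297 for *Cdc25a*. The cause was not tested. Fits with a library left out also hold fewer libraries. Lists of other genes moved by at most 2 calls. No paired analysis was possible because the groups share only the replicate number 2.

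The main limits are 3 libraries per group whose cultures are not stated, a targeted gene whose RNA was not lower in the libraries labelled Cre, shared exon bases for 6 of the 10 genes, and 27 to 34 control reads for *Cdk6*.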

Other observations

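Cyclins and kinases outside the G1 and S set include several that act in transcription. Of 14 other cyclin genes none passed by limma, edgeR or DESeq2 (2 at an unadjusted p under 0.05), 10 had a positive log2 fold change and the median was 0.15. *Ccnc*, the cyclin of the Mediator kinase module, had a log2 fold change of 0.54 (limma adjusted p = 0.109) and passed without Cre replicate 3 (limma adjusted p = 0.0432). *Ccnl1* had 0.30 (limma adjusted p = 0.167) and passed without Cre replicate 2 (limma adjusted p = 0.0284). Of 12 other CDK genes tested out of 13, 1 passed: *Cdk19*, a Mediator kinase, rose from 552 ± 12.2 to 943 ± 171 normalized counts (SD, n = 3 each; log2 fold change 0.76, limma adjusted p = 0.0074), and it was called in all 6 fits with a library left out.

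Of 16 genes of the mitogen input to cyclin D tested out of 18, 1 rose and 1 fell, beside 9.96% of all tested genes called, with a median log2 fold change of 0.05. *Ets1*, a transcription factor that acts after growth factor signals, rose from 584 ± 30.8 to 1362 ± 190 normalized counts (log2 fold change 1.21, limma adjusted p = 0.000384). *Mapk3*, which encodes the kinase ERK1, fell from 2095.5 ± 152 to 1417 ± 156 (log2 fold change -0.57, limma adjusted p = 0.0159). The *Mapk3* call was lost without control replicate 1_1 (limma adjusted p = 0.0707), control replicate 2 (0.0843) or Cre replicate 2_2 (0.0809).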
